A study of Mus musculus with 115 samples.

Results

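Inguinal fat of mice carrying the Sry transgene was compared between testosterone and empty capsules. The comparison rests on 10 arrays of testosterone-treated mice and 9 arrays of mice with a blank capsule, chosen by genotype, capsule and tissue as labelled, among 55 arrays of inguinal adipose tissue and 115 arrays of the whole study. All mice were on a C57BL/6J background in which Sry, the testis-determining gene, is deleted from the Y chromosome (written Y-), so that a transgenic copy alone decides whether testes form. XXSry and XY-Sry mice carry that transgene and develop testes, with the chromosome complement XX or XY-. Their gonads were removed at 75 days of age, a capsule was implanted at once, and fat was taken 3 weeks later, so no arm had gonadal hormones of its own at sampling. The testosterone capsule held 5 mM testosterone and the blank one only adhesive. XXSry mice gave 5 testosterone and 5 blank arrays, and XY-Sry mice gave 5 testosterone and 4 blank arrays. Side by side with them stand 9 testosterone and 8 blank arrays of XX and XY- mice, which lack Sry and had ovaries removed at the same age, and 9 arrays of XXSry and XY-Sry mice given a capsule with 50 µg estradiol. The labels do not say whether arrays of a group come from separate animals, so the p-values measure the spread between these arrays.

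Testosterone is a steroid hormone that alters the transcription of its target genes, partly through DNA elements built of paired half-sites that glucocorticoid signalling also uses. In adipose tissue it can also be converted to estradiol by aromatase, and androgens are known there for limiting fat cell formation and for altering lipid handling. Inguinal fat is a subcutaneous depot that holds adipocytes, vessels, macrophages and, embedded in it, a lymph node.

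Levels are given on the log2 scale of background-corrected, quantile-normalised bead intensity, and differences are testosterone minus blank on that scale with the standard error (SE) of the limma fit, both genotypes weighted equally. A probe was called at an adjusted p under 0.05, with Benjamini-Hochberg adjustment over the 14636 probes tested.

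Array medians of the 19 arrays lay between 129.9 and 201.3 intensity units, and 40.7% to 47.2% of probes were detected. Xist, the RNA of the inactive X, was at 6.88 to 7.76 in XXSry and at 4.72 to 6.03 in XY-Sry arrays, and the Y-linked Eif2s3y was at 4.52 to 6.41 and 8.05 to 9.48, so the genotypes fitted their labels. Adipocyte markers (8 genes, among them Adipoq, Fabp4 and Plin1) were high in every array, with summed intensities of 80000 to 110400 under testosterone and 81970 to 105500 under blank. No 2 of the 19 arrays held identical values.

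RNA of neighbouring tissues differed between arrays. XY-Sry T replicate 1 had a summed level of 17 tested liver markers of 275000. The other testosterone arrays reached 66590 at most and the blank arrays 94150. The count of calls and the values of several genes are therefore given with and without XY-Sry T replicate 1. Other values include it. The largest changes named below were called both ways. The 15 lymph node markers, B and T cell genes such as Cd79a, Ms4a1 and Cd3e, summed to 30170 to 61990 in 5 of 9 blank arrays and to 19980 to 31550 in 3 of 10 testosterone arrays. In the other arrays of both arms they lay between 748.8 and 4932. All 15 had a negative difference (median -1.88) and none was called. The fit was repeated with liver, muscle and node scores as covariates, and without the 8 node-rich arrays, a setting chosen after the sums were seen. The part of nodal RNA in the results was not tested beyond that. Leaving out the 8 arrays also leaves fewer in each arm, so a call can be lost while its difference stays. Skeletal muscle markers summed to 12990 to 277400 under testosterone and to 15270 to 226200 under blank. Endothelial markers lay at 6397 to 10150 under testosterone and at 9134 to 12990 under blank. In bulk tissue, fewer cells of a type and less RNA per cell cannot be told apart.

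**Figure D1:**
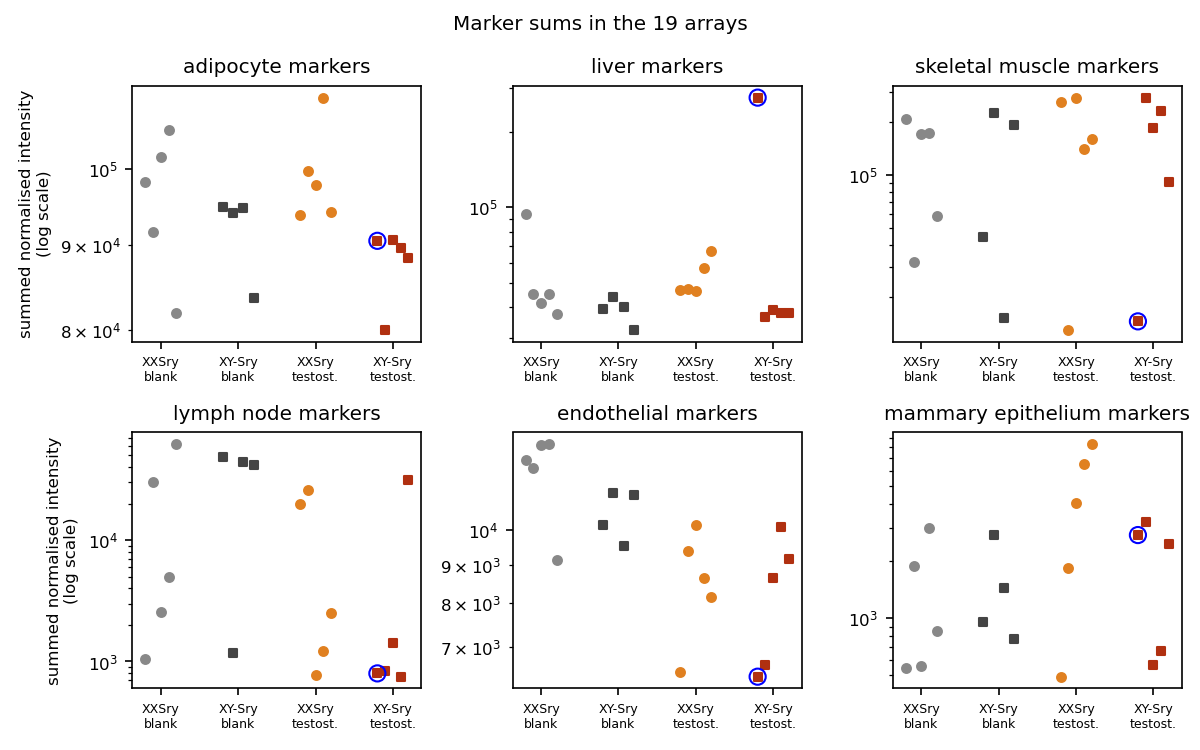
Summed normalised intensity (log axis) of the marker genes of 6 tissues or cell types in each of the 19 arrays, 1 point per array, by genotype and capsule; the blue ring marks XY-Sry T replicate 1. Lymph node sums are above 10000 in 5 blank and 3 testosterone arrays, and the ringed array stands alone for liver at 275000.

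Testosterone changed 519 of the 14636 probes (3.55%), 269 upwards (1.84%) and 250 downwards (1.71%). Of these, 104 rose (0.711%) and 31 fell (0.212%) by at least 2-fold. In 35 probes (0.239% of those tested) the testosterone and blank arrays did not overlap. Counted once per gene by its brightest probe, 416 of 10741 genes changed (3.87%), of which 205 rose (1.91%) and 211 fell (1.96%). Without XY-Sry T replicate 1, 528 of 14561 probes (3.63%) were called, and 442 of the 519 remained. With the other-tissue scores as covariates 726 probes were called, 381 of them among the 519, and the share of rising probes went from 51.8% to 35.7%. Without the 8 node-rich arrays 136 were called, 99 of them among the 519, and 39.0% of the 136 rose. Without XXSry T replicate 5 the count was 301, and without XXSry T replicate 2 it was 837.

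The largest increase was in Hp, which encodes haptoglobin, the haemoglobin-binding plasma protein. Its level was 12.61 to 14.65 (median 13.80) under testosterone and 9.69 to 10.87 (median 10.21) under blank. Every testosterone array lay above every blank array. The difference was 3.56 (SE 0.22, 11.8-fold, adjusted p = 1.2e-16), and it was 3.52 without XY-Sry T replicate 1. All 3 Hp probes were called, but their sizes differed. These values are from the probe with the largest change. The brightest probe had a difference of 2.53 (SE 0.17, 5.80-fold) and of 2.56 without XY-Sry T replicate 1, and its arms did not overlap either.

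Among hormone-responsive genes, Fkbp5 is an immunophilin of steroid receptor complexes and a standard androgen and glucocorticoid target. It lay at 8.46 to 11.002 (median 9.49) under testosterone and at 6.97 to 7.75 (median 7.54) under blank. The arms did not overlap, although XY-Sry T replicate 1 was the lowest of its arm. The difference was 2.17 (SE 0.27, 4.49-fold, adjusted p = 4.2e-07). Mt2, a metallothionein that binds zinc and copper, was at 6.56 to 10.04 (median 7.29) under testosterone and was not well above background in any blank array, where the probe read 4.71 to 6.05. It was at least 3.87-fold higher under testosterone, taking for each blank array the higher of its lowest detected signal and the probe's own (adjusted p = 5.7e-06). Mt1, its neighbour on the chromosome, was abundant in both arms, at 14.30 to 15.01 against 13.17 to 14.27. Those arms did not overlap either, and the difference was 0.97 (SE 0.14, adjusted p = 5.8e-06).

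On the list of 18 tested androgen- and glucocorticoid-responsive genes, 5 rose and 0 fell, with a median difference of 0.50, where all probes had a median of -0.02. Over all genes tested 1.91% rose and 1.96% fell, the shares to set beside this and the further lists. The lists were chosen with earlier results of these data known, so the counts describe their members only. Beside Fkbp5, Mt1 and Mt2 the 5 that rose were Errfi1, a feedback inhibitor of the EGF receptor (0.89, SE 0.19), and Hpgd, which inactivates prostaglandins (0.87, SE 0.23). Tsc22d3 and Klf9, classical glucocorticoid targets, had differences of 0.55 and 0.45 and were not called (adjusted p = 0.069 for each). Per1, Sgk1 and Dusp1, which respond quickly to glucocorticoids, were at -0.13, -0.08 and -0.08. Without the node-rich arrays, 3 of the 5 were still called (Fkbp5, Mt1 and Mt2). Without XY-Sry T replicate 1, 6 of the 18 were called, all of them upwards. Esr1, the main estrogen receptor, lay at the edge of the test, with a difference of -0.81 (SE 0.25, adjusted p = 0.054). Over 31 other settings its adjusted p ranged from 0.0013 to 0.14, and it was not called in 20 of them. Greb1, an estrogen target, had a difference of -0.46 (adjusted p = 0.20). Pgr was not well above background in any of the 19 arrays, and Srd5a1, which makes dihydrotestosterone, was detected only in XY-Sry T replicate 1. Of 20 tested genes of steroid reception and metabolism, 1 was called: Hsd11b1, which regenerates active glucocorticoid from its inactive form, rose by 0.77 (SE 0.17, adjusted p = 0.0065, 3 of 4 probes), but not without the node-rich arrays (0.62, adjusted p = 0.23).

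The stretches before the start sites of Mt1 and Mt2 are shown because the genes moved together, as taken from RefSeq on GRCm38.p6, 250 bases each. Capitals mark matches, on either strand, to the metal response core TGCACNC or TGCGCNC. Mt1 is on chr8:94178839-94179088 and Mt2 on chr8:94172368-94172617, both on the plus strand.
Mt1: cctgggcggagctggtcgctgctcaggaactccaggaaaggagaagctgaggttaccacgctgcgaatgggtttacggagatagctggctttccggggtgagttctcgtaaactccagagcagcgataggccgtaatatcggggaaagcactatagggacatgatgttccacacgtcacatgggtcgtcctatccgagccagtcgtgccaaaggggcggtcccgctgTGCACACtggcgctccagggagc
Mt2: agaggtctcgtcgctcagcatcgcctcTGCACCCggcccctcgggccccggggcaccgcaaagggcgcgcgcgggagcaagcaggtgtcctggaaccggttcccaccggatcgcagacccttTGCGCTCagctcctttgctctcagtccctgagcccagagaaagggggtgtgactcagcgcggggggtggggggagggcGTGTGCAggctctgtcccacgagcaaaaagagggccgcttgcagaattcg
Within its stretch Mt1 held 1 match, starting at -23 from the start site, and Mt2 held 3, at -223, -128 and -50. Only these 250 bases were searched, so matches outside them, also after the listed start, are not counted. The same stretch held such a match in 21.4% of the 32851 promoters listed. The androgen response element, a pair of AGAACA half-sites facing each other across 3 bases of any kind, was searched on both strands and was in 3 of those promoters, and in none of the 18 listed genes among the 24 with the largest changes. The half-site AGAACA was in 16.1% of all promoters and in 1 of those 18, Kcnk2, shown further on.

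Acute-phase genes encode plasma proteins and receptors that the liver and other tissues raise in inflammation. Of 25 tested members, Hp among them, 7 rose, 0 fell and 18 were not called, with a median difference of 0.47. Over all genes 1.91% rose, and this list too was chosen with earlier results known. Serpina3n, an inhibitor of serine proteases, was at 12.39 to 13.79 (median 12.87) under testosterone and at 10.52 to 11.53 (median 10.83) under blank. No array of one arm reached the other, and the difference was 2.01 (SE 0.18, adjusted p = 2.1e-11). Il1r2, a decoy receptor that takes up interleukin 1 without signalling, was at 7.96 to 10.21 (median 8.89) against 6.27 to 7.69 (median 6.87). Its arms did not overlap, and the difference was 2.03 (SE 0.27, adjusted p = 1.3e-06). Without XY-Sry T replicate 1 the differences of Serpina3n and Il1r2 were 2.02 and 2.12, and 7 members rose there as well. The other called members were Ptx3, which was detected in 5 of 10 testosterone and 0 of 9 blank arrays and is given no fold, Lbp, which carries bacterial lipopolysaccharide (1.37), Serpina3c (0.77) and Stat3, the transcription factor downstream of interleukin 6 (0.47). Orm1, an acute-phase gene best known from the liver, had a difference of 0.10 and was not called, nor were Pglyrp1 (-1.28) and C3 (-0.09). Saa3 (1.36, adjusted p = 0.12) and Lcn2 (1.10, adjusted p = 0.23) were not called either. Saa1, also best known from the liver, was detected in 1 of 10 testosterone and 1 of 9 blank arrays. Its difference of -0.19 therefore compares mostly background values. Hp, Il1r2 and Serpina3n stayed called without the node-rich arrays, and Lbp, with a difference of 1.25 there, did not (adjusted p = 0.24).

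Serpina3m, a further member of that inhibitor family, was at 6.59 to 11.66 (median 7.82) against 4.75 to 8.48 (median 5.41), and the arms overlapped. XY-Sry T replicate 1 held its highest value, 11.66, and the difference went from 2.55 (adjusted p = 0.00022) to 2.19 without that array. It was not called without the node-rich arrays (2.35, adjusted p = 0.071). The Serpina3 genes are near-identical copies, so what each probe reads cannot be settled from the names. Agt, angiotensinogen, the precursor of the blood pressure hormone angiotensin and a secreted product of both liver and fat, was at 6.26 to 10.69 (median 8.27) against 4.72 to 7.47 (median 5.22). The 2 arms overlapped, with XY-Sry T replicate 1 highest again. It was detected in 10 of 10 testosterone but only 2 of 9 blank arrays, so the size of the difference rests on blank values mostly not above background. As fitted, its difference was 2.89 (SE 0.52, adjusted p = 0.00036) and 2.58 without that array (adjusted p = 0.0011). Without the node-rich arrays it was 2.38 and was not called (adjusted p = 0.14). Of the 23 tested adipokines and secreted factors, Agt alone rose. Nrg4, a growth factor released by brown and beige fat, fell by 0.96 (SE 0.22, adjusted p = 0.0081). That call was lost with slide as a fixed block and without the node-rich arrays (-0.999, adjusted p = 0.15). The best-known fat hormones were not called: leptin (Lep) had a difference of 0.44 and adiponectin (Adipoq) of -0.11.

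Egfr, the receptor of epidermal growth factor, was at 8.70 to 9.95 (median 9.26) under testosterone and at 6.55 to 8.53 (median 7.21) under blank. The arms did not overlap. The difference was 2.04 (SE 0.25, adjusted p = 2.2e-07), all 4 probes were called, and it was 1.98 without the node-rich arrays (adjusted p = 0.0025). Slc6a13, a transporter of the transmitter GABA and of taurine, was at 8.39 to 11.57 (median 9.56) against 6.66 to 9.15 (median 7.34), with 2.11 as the difference (SE 0.34, adjusted p = 5.8e-05). Its highest value came from XY-Sry T replicate 1, without which the difference was 1.85. It was not called without the node-rich arrays (1.86, adjusted p = 0.057).

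Extracellular matrix genes, a list also chosen with earlier results known, included 4 that rose among 29 tested, where 1.91% of all genes rose. None fell, and the median difference was 0.27. Without XY-Sry T replicate 1, 5 rose, with Loxl1 among those called (0.74, adjusted p = 0.029). Timp4, an inhibitor of matrix metalloproteinases, was at 9.77 to 12.63 (median 11.10) under testosterone and at 8.70 to 9.91 (median 9.03) under blank. Only the ends of the arms overlapped, and the difference was 1.97 (SE 0.29, adjusted p = 9.0e-06). It was 1.90 without XY-Sry T replicate 1. Timp1, the inducible member of that family, was at 6.44 to 12.82 (median 8.97) against 6.70 to 8.48 (median 7.01). The spread under testosterone was wide, with XY-Sry T replicate 1 the lowest array of both arms by this probe. The Timp1 difference was 2.16 (SE 0.48, adjusted p = 0.0058) and 2.53 without that array. It was not called without the node-rich arrays (2.39, adjusted p = 0.11). By the brightest Timp1 probe XY-Sry T replicate 1 was at 7.05, within the blank range of 6.86 to 8.34, and the difference was 2.09. Lox, which cross-links collagen, rose by 1.31 (SE 0.28), and Col18a1, a basement membrane collagen that yields endostatin, by 0.98 (SE 0.23). Without XY-Sry T replicate 1 they were at 1.35 and 0.87. Neither was called with median centring or without the node-rich arrays, where Lox was at 1.11 (adjusted p = 0.24) and Col18a1 at 0.63 (adjusted p = 0.43). The fibrillar collagens Col1a1, Col1a2 and Col3a1 had differences of 0.80, 0.82 and 0.50 and were not called.

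The remaining large increases varied widely between testosterone arrays. Il1rl1, a cytokine receptor of mast cells and innate lymphoid cells, was at 5.03 to 11.34 (median 7.03) against 4.74 to 6.35 (median 5.35). It was detected in 6 of 10 testosterone arrays, its difference was 2.16 (SE 0.61, adjusted p = 0.033), and it was not called in 16 of 31 other settings, where the adjusted p ranged from 0.0095 to 0.19. Odf3l2 was not well above background in any blank array and was detected in 8 of 10 testosterone arrays, at least 3.19-fold higher (adjusted p = 0.014). Dmkn, a secreted protein of epithelia, was at 7.58 to 10.64 against 5.56 to 8.24, a difference of 2.04 (SE 0.48, adjusted p = 0.0092). Neither Odf3l2 nor Dmkn was called without the node-rich arrays, where the fitted differences were 2.29 and 1.81 (adjusted p = 0.26 and 0.27). With all arrays the fitted difference of Odf3l2 was 2.35.

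**Figure D2:**
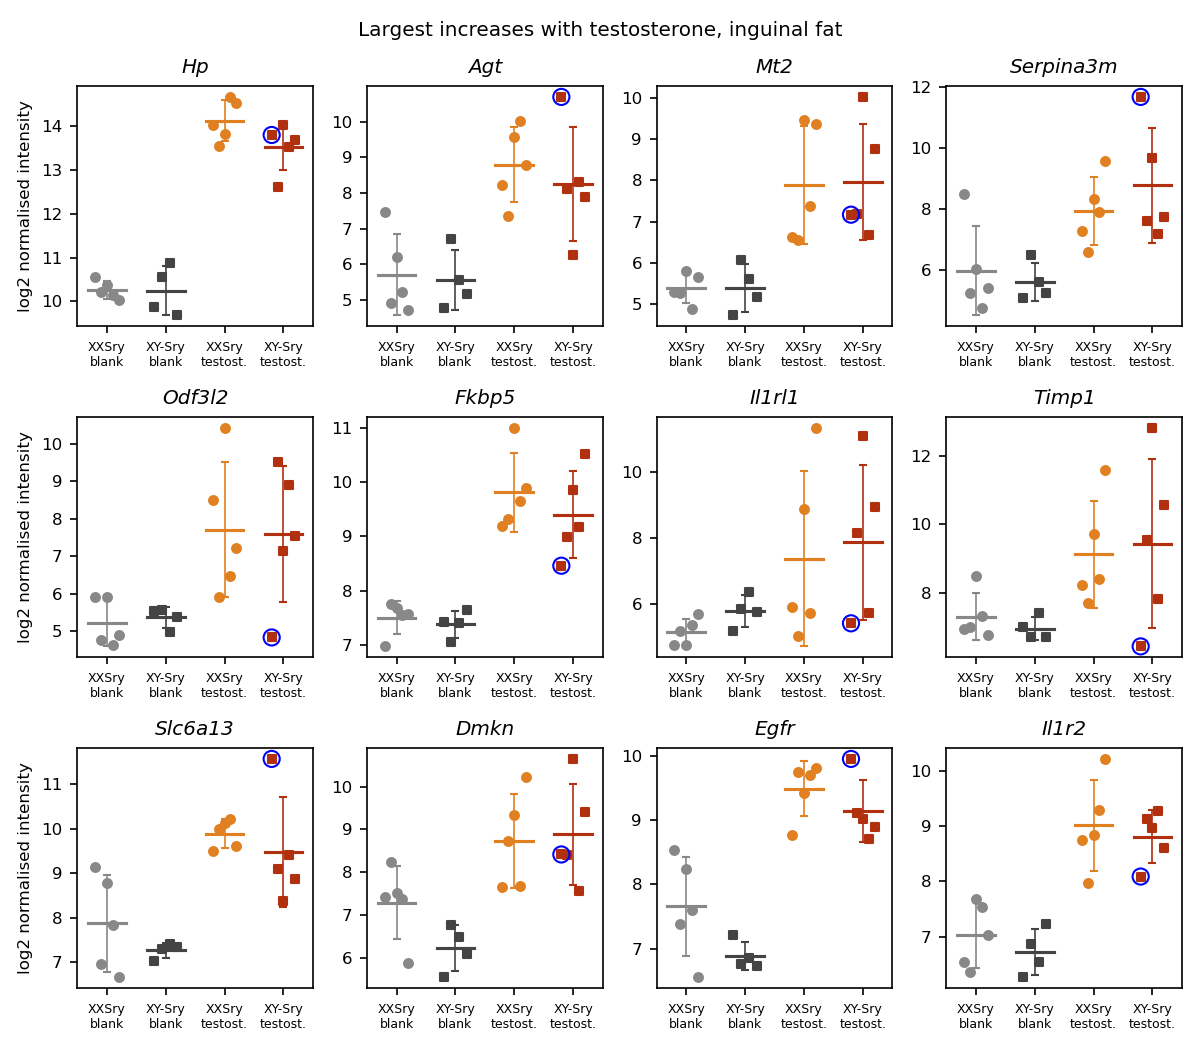
Levels (log2 normalised intensity) of the 12 genes with the largest increases in each of the 19 arrays, by genotype and capsule, with the mean (bar) and SD of each group; the ring marks XY-Sry T replicate 1. Hp, Mt2, Fkbp5, Egfr and Il1r2 have no overlap between testosterone and blank arrays, while Il1rl1 runs from 5.03 to 11.34 and Timp1 from 6.44 to 12.82 under testosterone.

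Among genes of fatty acid synthesis 2 fell. Elovl6, which lengthens palmitate to stearate, was at 9.18 to 12.47 (median 10.10) under testosterone and at 11.27 to 13.94 (median 12.37) under blank. Testosterone arrays lay below all blank arrays but for XY-Sry T replicates 1, 3 and 4, which reached into their range. It fell by 1.73 (SE 0.41, adjusted p = 0.0098), and by 2.07 without the node-rich arrays (adjusted p = 0.096). Slc25a1, which exports citrate from mitochondria as a source of carbon for fatty acids, fell by 0.79 (SE 0.22, adjusted p = 0.033), and it was not called in 14 of 31 other settings. They were the 2 called members of 20 tested genes of fatty acid synthesis, whose median difference was -0.21. Over all genes 1.96% fell. Fasn, fatty acid synthase itself, had a difference of -1.10 (SE 0.39, adjusted p = 0.11), Acly one of -0.70 and Acaca one of -0.64, and none was called. With slide as a fixed block neither Elovl6 nor Slc25a1 was called. Tkt, transketolase of the pentose phosphate pathway, gave mixed readings: 2 of 3 probes fell, the larger by 1.34 (SE 0.31, adjusted p = 0.0070), but the brightest probe had a difference of -0.15 (adjusted p = 0.74). The probe with the larger fall was near background under testosterone, with medians of 5.57 in XXSry and 5.67 in XY-Sry mice.

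Few other lipid genes were called. Of 20 genes of cholesterol synthesis and uptake 0 were called, with a median difference of 0.05. Of 23 adipogenic transcription factors and insulin response genes 0 were called either, with a range from -0.28 (Slc2a1) to 0.48 (Cebpa). Pparg, the master regulator of fat cell formation, had a difference of -0.22 (SE 0.16). Among 31 genes of triglyceride storage and lipolysis, Cidea, a lipid droplet protein abundant in brown fat, was the single one called, as it was among 15 tested genes of brown and beige fat. Its level was 9.16 to 11.24 under testosterone and 11.20 to 12.74 under blank, and it fell by 1.52 (SE 0.45, adjusted p = 0.045). That call was lost without XY-Sry T replicate 1 (adjusted p = 0.051) and in 19 of 31 other settings. Without XY-Sry T replicate 1 Agpat2 was the single gene called on the triglyceride list (-0.72, adjusted p = 0.028). The thermogenic Ucp1 had a difference of -1.65 with an SE of 0.82 (adjusted p = 0.28). Of 19 genes of mitochondrial fatty acid oxidation 15 had negative differences (median -0.24), and Etfb, an electron carrier of that pathway, was called (-0.40, SE 0.11, adjusted p = 0.033), but not in 13 of 31 other settings, where the adjusted p ranged from 0.0031 to 0.26. Neither 15 tested clock genes nor 23 interferon-induced and antigen presentation genes included a called member.

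Cldn11, a tight junction claudin, was at 4.97 to 10.07 (median 6.66) under testosterone and at 7.36 to 9.86 (median 9.36) under blank. Despite the overlap, 7 of 10 testosterone arrays were below all blank arrays. It fell by 1.93 (SE 0.47, adjusted p = 0.012), and without the node-rich arrays its difference was -1.97 (adjusted p = 0.069). Gpx8, a peroxidase of the endoplasmic reticulum, was at 10.80 to 12.20 (median 11.75) against 12.21 to 13.62 (median 13.34). The arms met without overlapping. It fell by 1.53 (SE 0.20, adjusted p = 9.7e-07) in all 3 probes. Lctl, a klotho-related membrane protein, fell by 1.55 (SE 0.26, adjusted p = 0.00016).

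A pair of potassium channels fell together. Kcnk2, a stretch-sensitive leak channel, was at 5.28 to 7.08 (median 6.37) under testosterone and at 7.21 to 8.41 (median 7.54) under blank. No testosterone array reached the lowest blank array, and it fell by 1.45 (SE 0.25, adjusted p = 0.00016). Kcnh2, a voltage-gated channel best known for repolarising the heart, was at 4.66 to 6.40 (median 5.56) against 5.39 to 8.76 (median 7.21), and it fell by 1.46 (SE 0.24, adjusted p = 0.00012). Both stayed called in each of the 31 settings tried. The stretch before 1 of 4 start sites listed for Kcnk2, on chr1:189402274-189402523 of GRCm38.p6 (RefSeq, minus strand, written in the gene's direction), is shown because Kcnk2 was the 1 gene with the half-site among the 18 searched, marked in capitals at -241. A match is a description of the letters, not a binding site.
Kcnk2: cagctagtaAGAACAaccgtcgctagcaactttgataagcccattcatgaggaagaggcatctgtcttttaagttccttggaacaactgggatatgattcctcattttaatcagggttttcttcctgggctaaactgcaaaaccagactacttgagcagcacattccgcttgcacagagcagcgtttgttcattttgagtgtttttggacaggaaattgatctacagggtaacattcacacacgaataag

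St3gal6, a sialyltransferase, was at 10.26 to 12.26 (median 11.14) under testosterone and at 11.99 to 12.91 (median 12.54) under blank. All but 1 of the testosterone arrays were lower than every blank array, and it fell by 1.30 (SE 0.18, adjusted p = 3.6e-06). Rasl12, a small GTPase of the Ras family, fell by 1.21 (SE 0.20, adjusted p = 0.00016). MGC29978 fell by 1.31 (SE 0.34, adjusted p = 0.018) although XY-Sry T replicate 1, at 13.63, was the highest of all 19 arrays. Without that array it fell by 1.69 (adjusted p = 2.1e-05). It was not called with only the 19 arrays or without the node-rich arrays (-1.45, adjusted p = 0.17). Prg2, the major basic protein of eosinophil granules, fell by 1.56 (SE 0.32, adjusted p = 0.0022) from levels of 6.45 to 7.64 under blank, and it was detected in 2 of 10 testosterone and 9 of 9 blank arrays. Rad54b, a DNA repair protein, fell by 1.38 (SE 0.30, adjusted p = 0.0040). Its testosterone medians, 5.43 in XXSry and 5.31 in XY-Sry mice, were near background. Without the node-rich arrays Prg2 and Rad54b had differences of -1.58 and -1.38 and were not called (adjusted p = 0.087 and 0.073).

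**Figure D3:**
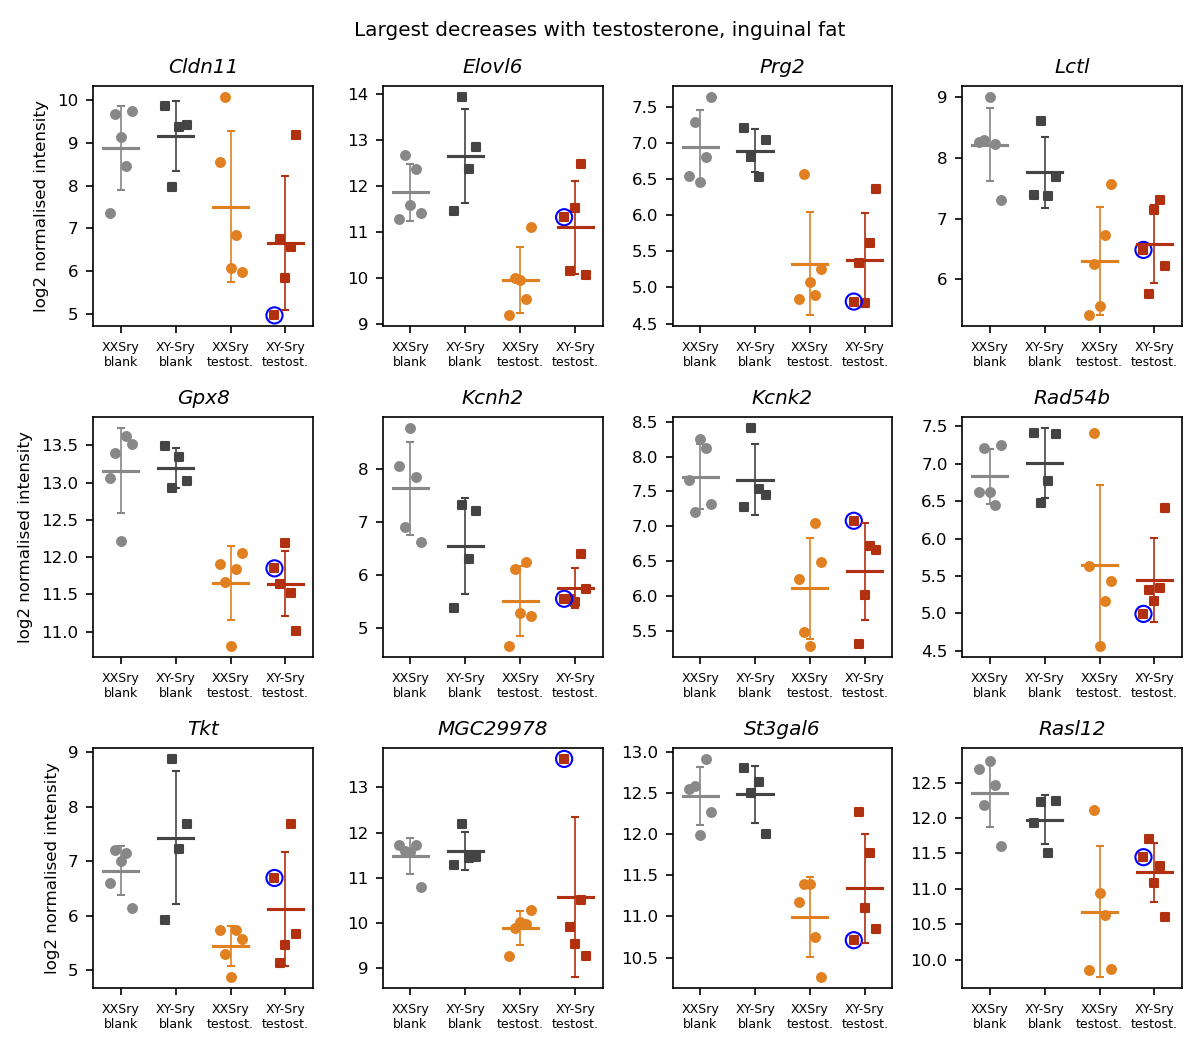
Levels (log2 normalised intensity) of the 12 genes with the largest decreases in each of the 19 arrays, by genotype and capsule, with the mean (bar) and SD of each group; the ring marks XY-Sry T replicate 1. Gpx8 and Kcnk2 have no overlap between arms, and the ringed array stands far above all others for MGC29978 at 13.63.

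Cell cycle genes leaned downwards, as did the lymph node markers, and a link between them was not tested. Of 18 tested, 17 had negative differences, with a median of -0.40, and Cdk1, the kinase of mitotic entry, was called (-1.13, SE 0.32, adjusted p = 0.034). The median was -0.02 with the other-tissue scores as covariates and -0.13 without the node-rich arrays. Cdk1 itself was at -0.99 without those arrays and was not called (adjusted p = 0.32), among 16 of 31 other settings that lost its call. The testosterone medians of Cdk1, 5.83 in XXSry and 5.55 in XY-Sry mice, were near background.

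Of 7 endothelial markers, all had negative differences (median -0.35) and 2 were called: Pecam1 (-0.44, SE 0.13, adjusted p = 0.045) and Cdh5, the cadherin of vessel walls (-0.69, SE 0.19, adjusted p = 0.026). Neither was called without XY-Sry T replicate 1 (adjusted p = 0.090 and 0.057). Without the node-rich arrays Cdh5 was called (-1.06, adjusted p = 0.025) and Pecam1 was not (-0.22, adjusted p = 0.74). Among 7 tested macrophage markers Cd163, the haptoglobin-haemoglobin scavenger receptor, rose by 1.05 (SE 0.28, adjusted p = 0.024), from a level of 7.39 to 9.28 (median 7.90) under blank to 7.86 to 10.20 (median 9.29) under testosterone. The arms overlapped widely, 1 of its 2 probes was called, and it was not called without the node-rich arrays (0.86, adjusted p = 0.38), among 7 of 31 other settings that lost the call.

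**Figure D4:**
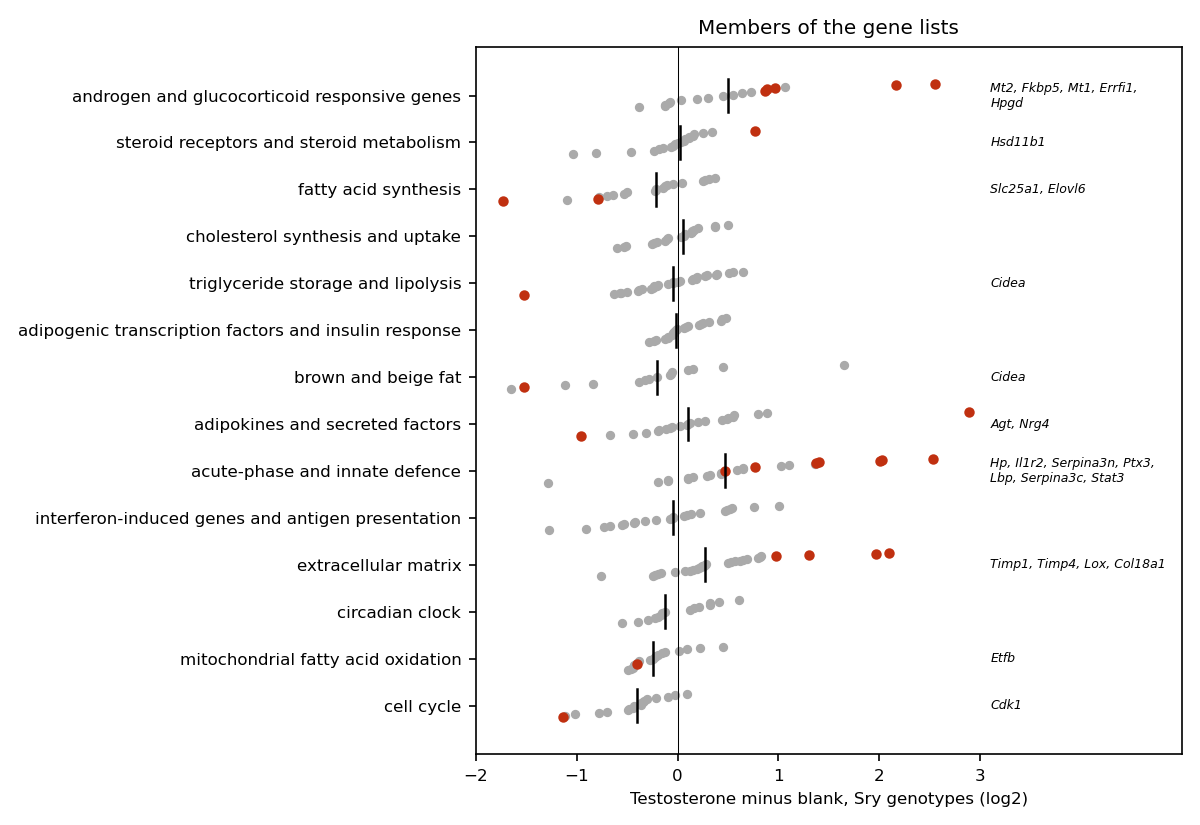
Difference between testosterone and blank (log2, testosterone minus blank) for each tested member of the 14 gene lists, 1 point per gene, red where called at an adjusted p under 0.05, with the median of the list as a black line and the called genes named at the right. Called members lie on the positive side for the hormone-responsive, acute-phase and matrix lists and on the negative side for fatty acid synthesis. The lists were chosen with earlier results of these data known.

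Both chromosome complements moved the same way. All 519 called probes had the same sign in XXSry and XY-Sry mice, against 62.7% of all tested probes, although a probe called on their mean is more likely to share sign. Separately, XXSry mice gave 112 called probes (0.765%) and XY-Sry mice 31 (0.212%), of which 23 were in both. The difference between the responses was tested directly: 0 probes (0%) were called by limma, with 445 at an unadjusted p under 0.05 (3.04%). Hp rose by 3.84 in XXSry and 3.27 in XY-Sry mice, and Fkbp5 by 2.31 and 2.03. By its brightest probe Hp rose by 2.27 in XXSry and 2.80 in XY-Sry mice. Kcnh2 fell by 2.12 in XXSry mice (adjusted p = 0.00012) and had a difference of -0.80 in XY-Sry mice (adjusted p = 0.44), but the difference between them, -1.32, was not called (adjusted p = 0.97).

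In mice without Sry most of these probes differed in the same direction, by less. Of the 519 probes, 464 (89.4%) had the same sign there, against 67.1% of all tested probes. The lines had no arrays in common, but their arrays lay on the same 8 slides, most of which held testosterone or blank arrays but not both. The part of the slides in this agreement was not tested. In mice without Sry 42 of the 519 were called in the same direction, and 65 probes in all (0.444%). The median size of the 519 differences was 0.75 in mice with Sry, and along the same direction it was 0.29 in those without, and the probes were chosen on the first of these values. Il1r2 rose by 2.38 without Sry (adjusted p = 3.1e-07), Hp by 2.59 (adjusted p = 1.3e-10), Egfr by 1.66 (adjusted p = 0.00014) and Fkbp5 by 1.35 (adjusted p = 0.012). By its brightest probe Hp rose by 2.08 there. Elovl6 fell by 2.41 (adjusted p = 0.0015) and Lctl by 1.96 (adjusted p = 2.3e-05). Mt2, in contrast, had a fitted difference of 0.51 there (adjusted p = 0.96), Timp4 of 0.32 (adjusted p = 0.98) and Slc6a13 of 0.29 (adjusted p = 0.996). The tests of the difference between the lines gave 2.04 for Mt2, 1.65 for Timp4 and 1.82 for Slc6a13, and none was called (adjusted p = 0.48 for each). The value for Mt2 rests on blank arrays of the Sry genotypes in which the probe was not well above background. Over all probes 1 was called (0.00683%): Myl12a, a regulatory light chain of myosin, rose by 0.47 (SE 0.12, adjusted p = 0.018) with Sry and had a difference of -0.50 (adjusted p = 0.062) without, and these differed by 0.97 (SE 0.18, adjusted p = 0.023). At an unadjusted p under 0.05 the lines differed in 624 probes (4.26%).

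**Figure D5:**
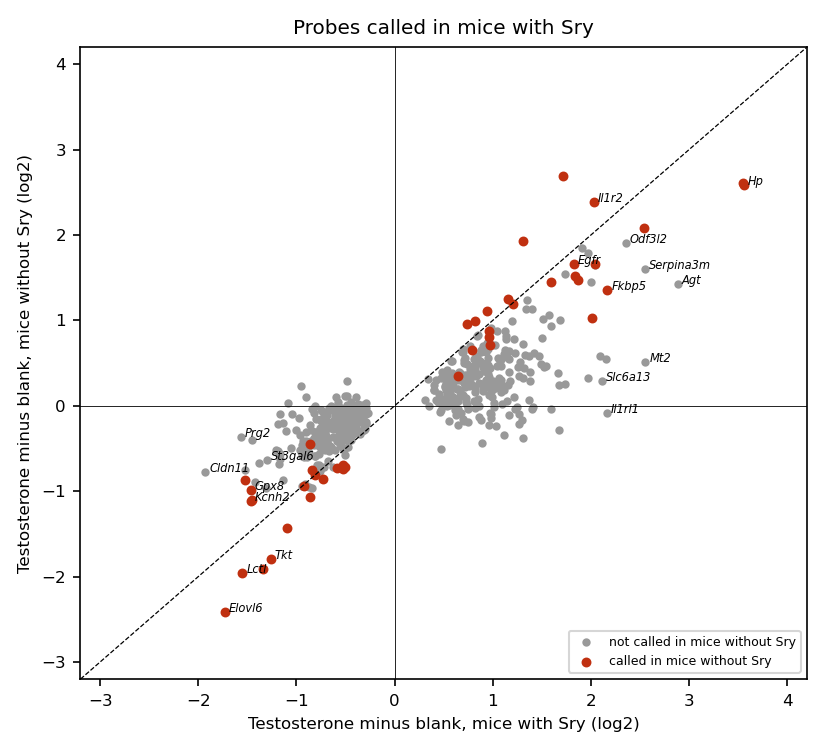
Difference between testosterone and blank (log2) in mice without Sry (vertical axis) against that in mice with Sry (horizontal axis) for the 519 probes called in mice with Sry, red where also called without Sry; the dashed line marks equal values. Elovl6, Lctl and Il1r2 lie on the far side of the line from 0, while Mt2, Slc6a13 and Il1rl1 lie near 0 on the vertical axis.

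Estradiol in the same genotypes shares the blank arrays with this comparison and changed 1486 probes (10.2%), so the values are given side by side, and the capsules were also compared directly, testosterone minus estradiol, which called 931 probes (6.36%). Hp rose under both, by 3.56 with testosterone and 2.43 with estradiol, and its level was 1.13 higher with testosterone (SE 0.22, adjusted p = 0.00045). By its brightest probe the rises were 2.53 and 1.82, and its level was 0.71 higher with testosterone (SE 0.17, adjusted p = 0.0049). Fkbp5 had a difference from blank of 0.19 with estradiol and was 1.98 higher with testosterone (SE 0.27, adjusted p = 7.4e-07). Timp4 was 2.21 higher (adjusted p = 1.9e-07) and Serpina3m 2.74 higher (adjusted p = 1.9e-05) with testosterone than with estradiol. Hsd11b1 and Cldn11 moved in opposite directions under the 2 hormones. Hsd11b1 rose by 0.77 with testosterone and fell by 2.15 with estradiol, and the capsules differed by 2.92 (SE 0.17, adjusted p = 6.0e-18). Cldn11 fell by 1.93 with testosterone and rose by 2.17 with estradiol, a difference between capsules of -4.10 (SE 0.47, adjusted p = 1.0e-08). Greb1 rose by 2.83 with estradiol and was -3.29 apart with testosterone (SE 0.20, adjusted p = 5.4e-18). For Kcnk2, St3gal6, Nrg4 and Elovl6, which fell under both, the direct differences were -0.27 (SE 0.25), 0.09 (SE 0.18), 0.00 (SE 0.22) and -0.15 (SE 0.41), and none was called. Timp1 rose under both, by 2.16 and 2.66.

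The arrays came from 8 slides, of which 2 held both arms, with 2 testosterone and 2 blank arrays each. A slide was taken to be the arrays whose titles open with the same number. Within those slides 469 and 514 of the 519 probes kept their sign, and 464 (89.4%) did so in both, against 41.1% of all tested probes. These arrays are part of the fit that chose the probes. The Hp difference was 2.61 and 3.96 within the slides (1.70 and 2.37 by its brightest probe). That of Fkbp5 was 1.82 and 2.07, and that of Gpx8 -0.99 and -1.29. Cldn11 had a difference of 0.16 in one and -1.99 in the other, Il1rl1 of 1.86 and -0.07, Serpina3m of -0.15 and 1.66, and Mt1 of 0.17 and 1.03. With slide as a fixed block 267 probes were called, 243 of them among the 519.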

How the data were processed

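RNA of inguinal fat was measured on 1-colour Illumina BeadChips. The authors deposited, per the file headers, a mean bead intensity and a detection p-value per probe and array. The software lumi is named in the submitters' processing notes, its version and settings are not given in the sources used here. The deposited intensity values were not normalised between arrays: medians of the 55 fat arrays ran from 129.9 to 230.4. Columns with the bead standard error (55) were not used.

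Intensities were background-corrected by normexp with negative controls inferred from the detection p-values (limma 3.58.1, R 4.3.3), 16 was added, and log2 values were quantile-normalised over the 55 arrays. Probes with a detection p under 0.01 in at least 3 arrays (14636 of 25697) were tested with lmFit and eBayes on 12 group means, with Benjamini-Hochberg adjustment. The fit was checked on simulated arrays with independent noise and no slide or tissue differences. That check covers the working of the fit and not the calls in these data. Precision is limited by the number of arrays. Symbols were updated through a RefSeq gene table: 17548 probes matched by symbol, 7082 by synonym, 116 were ambiguous, 930 had no match, and 21 symbols were turned into dates. Odf3l2, Gpx8, Rad54b, St3gal6, Errfi1, Cdk1 and Myl12a are listed under older names.

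Named genes are the 12 largest increases and decreases called with and without XY-Sry T replicate 1 and alike in sign in both genotypes (1 probe per gene), at most 4 called members per list, 5 preset hormone genes (a further one is not reported here) and called interactions. List members are read by their brightest probe, and the largest increases and decreases by the probe with the largest change. The comparison, members and lists were chosen with earlier results of these data known. Replicate numbers follow accession order. One XX estradiol array with conflicting label fields was kept as estradiol, as in its title, and left out in an alternative.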

Additional observations from a re-analysis of the deposited data

Results flagged for a closer look

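Of 188 groups of 4 or 5 arrays examined for the named probes, 12 held an array set apart from the rest of its group by Dixon's gap test, which chance alone gives in about 1 in 20 groups. MGC29978 in XY-Sry T replicate 1 was at 13.63, where the other 4 arrays lay between 9.26 and 10.50, and that array is the one rich in liver markers. MGC29978 in XXSry B replicate 5 was at 10.79 (others 11.58 to 11.73). The same array had Etfb at 13.59 (others 14.11 to 14.22). XXSry T replicate 2, a node-rich array whose removal raised the count of called probes to 837, had Prg2 at 6.57 (others 4.84 to 5.25) and Pecam1 at 11.08 (others 10.52 to 10.66). XY-Sry T replicate 5, also node-rich, had Rad54b at 6.41 (others 4.99 to 5.34) and Cidea at 10.02 (others 10.96 to 11.24). XXSry B replicate 3 had Timp1 at 8.34 by its brightest probe (others 6.97 to 7.30) and Srd5a1 at 5.45 (others 4.97 to 5.09). XXSry B replicate 1 had Fkbp5 at 6.97 (others 7.54 to 7.75), XY-Sry B replicate 4 had Esr1 at 7.02 (others 8.26 to 8.49), and XY-Sry T replicate 4 had Kcnh2 at 6.40 (others 5.504 to 5.741).

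Myl12a differed in its testosterone response between mice with and without Sry by 0.97 (limma, adjusted p = 0.023). No such probe was called with median centring, without the node-rich arrays, or without XY-Sry B replicate 1, XY-Sry T replicate 3, XXSry B replicate 5 or XXSry T replicate 5.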

How the results depend on the processing

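Counts of called probes moved with the processing while the named genes mostly kept their direction. In the Sry genotypes together (519 probes) the count was 178 with median centring, 221 with only the 19 arrays, 267 with slide as a fixed block, 885 with array weights and 136 without the node-rich arrays, and 301 to 837 when single arrays were left out. For XXSry mice (112) the same settings gave 42, 32, 64, 556 and 207, the tissue covariates gave 337, and leaving out single arrays 47 to 363, with 74 without XXSry B replicate 1 and 189 without XXSry B replicate 5. For XY-Sry mice (31) median centring gave 18, only the 19 arrays 19, array weights 86 and the node-free set 4, and single arrays 21 to 45. The difference between chromosome complements stayed at 0 probes except for 1 without the node-rich arrays. The difference between mice with and without Sry (1 probe) became 2 with 50 added before the log, with slide as a random block and with array weights, 0 with median centring and without the node-rich arrays, and 0 to 2 without single arrays. Median centring put the median of all probes in XY-Sry mice at -0.19 (main -0.03). Of the 47 named probes, 44 kept direction and call without background correction, 46 with 50 added, 31 with the slide block, 42 with the covariates and 21 without the node-rich arrays. Pgr turned to -0.049 with the covariates. No paired analysis was possible because the labels carry no replicate numbers.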

Other observations

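Beyond the lists, called genes chosen after their values were seen are given here as single genes and not as groups. They were picked among the called probes (1.84% of all tested rose and 1.71% fell), so their number says nothing about the cell types they are known from. Of the 7 endothelial markers on the list, 2 were called. Called genes known from the vessel wall, 10 in number, fell by 0.44 to 1.10: Aplnr, the apelin receptor (-1.10, SE 0.24), Icam2 (-0.86), F2rl3 (-0.82), Bcl6b (-0.82), the endothelial transcription factors Sox7 (-0.66) and Sox18 (-0.44), Tal1 (-0.58), Emcn (-0.54), Robo4 (-0.52) and Egfl7 (-0.49). Aplnr was at 7.28 to 9.41 (median 8.52) under testosterone and at 8.98 to 10.17 (median 9.57) under blank. Of the 10, 8 were called without XY-Sry T replicate 1, 9 with the tissue covariates and 2 without the node-rich arrays (Emcn and F2rl3). Of all 519 called probes, 442 stayed called without XY-Sry T replicate 1, and most were lost without the node-rich arrays. With estradiol, which shares the blank arrays, 8 of the 10 were called in the same direction. That share was not set beside the share of all 519 called probes, so it cannot be read as a trait of these genes. In mice without Sry none of the 10 was called in that direction. Only 42 of all 519 were called in the same direction without Sry, so that lack is not particular to these genes.

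Of the 7 macrophage markers tested 1 was called, and of the 7 neutrophil markers 0. Called genes picked in the same way that are known from myeloid cells, 9 in number, were Fcgr1 (1.73, SE 0.36) and Fcgr3 (1.04), receptors for antibodies, Clec4d (1.67), the chemokines Ccl6 (1.52) and Ccl9 (1.38), Trem2, a lipid-sensing receptor (1.499), Ms4a7 (0.997), C1qb (0.83) and Stab1 (0.55). Fcgr3 was at 8.48 to 9.78 (median 8.77) under testosterone and at 7.37 to 8.40 (median 7.85) under blank, with no overlap. All 9 were called without XY-Sry T replicate 1, 8 with the covariates and 0 without the node-rich arrays, where most of the 519 called probes were lost. Their adjusted p in that setting ranged upwards from 0.050 for Ccl9. Lrg1, a secreted glycoprotein of the acute phase, rose by 1.83 (SE 0.14, adjusted p = 3.9e-13), from 11.33 to 11.69 under blank to 12.86 to 14.16 under testosterone, and it also rose without the node-rich arrays (2.02, adjusted p = 1.6e-07). Pdhb and Pdha1, subunits of pyruvate dehydrogenase, fell by 0.85 (SE 0.25, adjusted p = 0.044) and 0.51 (SE 0.14, adjusted p = 0.026). Neither was called without the node-rich arrays (-1.18 and -0.61, adjusted p = 0.12 and 0.15), with estradiol or in mice without Sry.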
